A study of Danio rerio with 18 samples.

Results

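The response of zebrafish embryos to added retinoic acid was measured during segmentation, when the trunk is divided into somites, in 6 of the 18 libraries of the study. They were chosen by their labels: 3 libraries from embryos treated with 0.1 µM all-trans retinoic acid (atRA) and 3 from embryos given DMSO, the solvent, both collected when 12 somites had formed. All embryos were wild-type, were kept at 28°C, and entered treatment at 80% epiboly, a late point of gastrulation, so the atRA group differed from its control by the compound alone as far as the labels say. Total RNA came from whole embryos. The number of embryos pooled per library, and whether replicates came from separate clutches, is not given in the sources used here, so p-values measure the spread between these libraries, which may be technical. The other 12 libraries are atRA and control embryos at 80% epiboly, with treatment from 30% epiboly, and at 24 hours post fertilisation (24 hpf), with treatment from 80% epiboly.

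Retinoic acid is the active form of vitamin A. In vertebrate embryos it is made by retinaldehyde dehydrogenases, mainly in the somites and the mesoderm beside them, and is degraded by Cyp26 enzymes at the head and tail ends. It enters the nucleus and binds retinoic acid receptors, which sit on DNA with retinoid X receptors and switch between repressing and activating their target genes. The resulting gradient helps to pattern the hindbrain through Hox genes, to set where the heart and pancreas form, and to end the growth of the tail bud. Added atRA overrides the gradient, and in zebrafish it is known for a loss of anterior head structures. The files count reads per Ensembl transcript ID, and 0 of the 58549 IDs could be paired with a gene through the tables used here. No gene, pathway or cell type is therefore named below, and markers of the labelled tissue could not be checked. What follows is the shape of the response: its size, its direction, the abundance of the transcripts it reached, and how often a transcript was switched on or off. In whole embryos, fewer cells of a type and less RNA per cell cannot be told apart.

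Control libraries held 87637013 to 88004323 counts that were assigned to a transcript, and atRA libraries 77807705 to 86123564. Every atRA library was therefore shallower than every control. Batches of preparation or sequencing are not given in the labels, and a batch that followed treatment cannot be told apart from atRA. Levels are given as CPM, the usual measure of a transcript's count relative to its library's total, here with TMM factors that adjust for differences in library composition. These factors lay between 0.991 and 1.02. A level of 1 CPM stands for roughly the same share of reads in each library but not for the same number of molecules of each transcript, since longer transcripts gather more reads. IDs were not independent of each other. Among the transcripts tested, 1168 fell into 560 sets whose members had the same count in every library of the study, so a number of calls is not a number of separate transcripts.

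The response was broad and mostly small. A transcript was tested when it passed edgeR's filterByExpr, which asks for a minimum count in enough libraries. Of 41090 transcripts tested, 14844 or 36.1% differed between atRA and control by edgeR's quasi-likelihood test at an adjusted p under 0.05, and these are referred to as called. Of all transcripts tested, 17.7% were called higher with atRA (7258) and 18.5% lower (7586). Among the called rises the median log2 fold change was 0.42, and among the called falls it was -0.5. Of the rises 90% lay below a log2 fold change of 1.38, and of the falls 90% lay below an absolute value of 1.5. A change of at least 2-fold was estimated for 2972 called transcripts, which is 7.23% of those tested and 20% of the calls.

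Replicates lay close together. Estimated over all transcripts, edgeR's common biological coefficient of variation was 0.052 within controls and 0.0458 within the atRA libraries. For 14329 of the calls, 96.5%, every atRA library lay on the called side of every control library. Over all transcripts tested the groups did not overlap for 47%, and 4981 of those were not called. With 1 library left out at a time, 10125 of the 14844 calls were made in the same direction in all 6 fits. Of the calls of at least 2-fold, 2718 of 2972 were. When all 18 libraries shared 1 fit, and with it 1 estimate of the spread, 6644 transcripts were called.

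**Figure D1:**
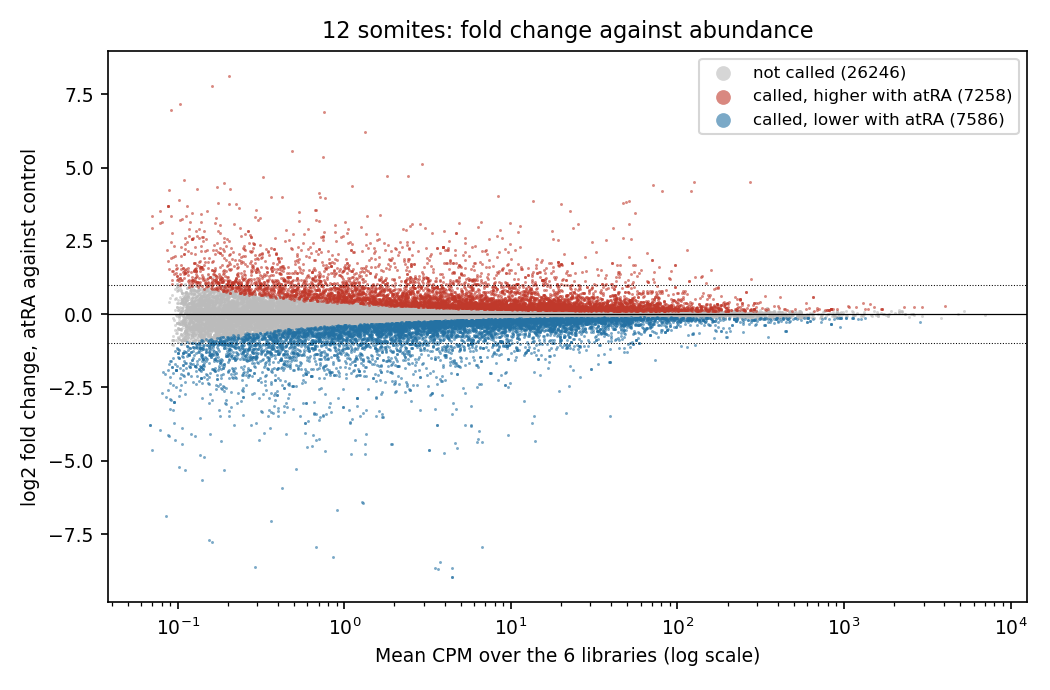
Each point is 1 of the transcripts tested at 12 somites, with its mean CPM over the 6 libraries on a log axis and its log2 fold change of atRA against control. Called transcripts are coloured (7258 higher, 7586 lower), dotted lines mark a 2-fold change, and the funnel of uncalled points narrows toward abundant transcripts.

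The size itself was tested with edgeR's glmTreat, which asks whether a change exceeds a stated minimum. A change beyond 1.5-fold was called for 3012 transcripts, 7.33% of those tested, 1389 higher and 1623 lower. A change beyond 2-fold was called for 1291, or 3.14%, of which 597 were higher and 694 lower. The smallest estimate that passed the 2-fold minimum had an absolute log2 fold change of 1.14.

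With TMM scaling, direction shifted with size. Among called transcripts that changed by less than 0.25 on the log2 scale, rises outnumbered falls by 1937 to 1497. From 0.5 to 1 there were 1827 rises and 2141 falls, and from 1 to 2 there were 1021 and 1251. The next class, 2 to 3, held 226 rises and 241 falls. Falls made up the larger part of the steepest changes. At least 8-fold changes numbered 86 rises and 147 falls, so that 36.9% were rises, and at least 16-fold changes numbered 27 and 61.

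The excess of falls among steep changes was also there without transcripts that were near 0 in 1 group, whose fitted fold change depends on the prior count of the model. Leaving out every transcript with at most 3 counts in each library of either group, at least 8-fold changes numbered 53 rises and 107 falls, and at least 16-fold changes 13 and 32. In all 17 alternative fits, falls outnumbered rises both at 2-fold and at 8-fold. The share of rises at 8-fold ran from 34.1 to 45.1%, the latter with no filter on low counts. The direction of the whole response, in contrast, depended on the scaling. Rises made up 48.9% of all calls with TMM, 50.4% with DESeq2 size factors, 44.5% with library totals and 42.7% with upper quartile factors. Among calls of at least 2-fold these shares were 44.9, 45.6, 43.1 and 42.6%. The difference in this share between all calls and calls of at least 2-fold thus depended on the scaling as well. With upper quartile factors it was nearly absent (42.7 and 42.6%).

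**Figure D2:**
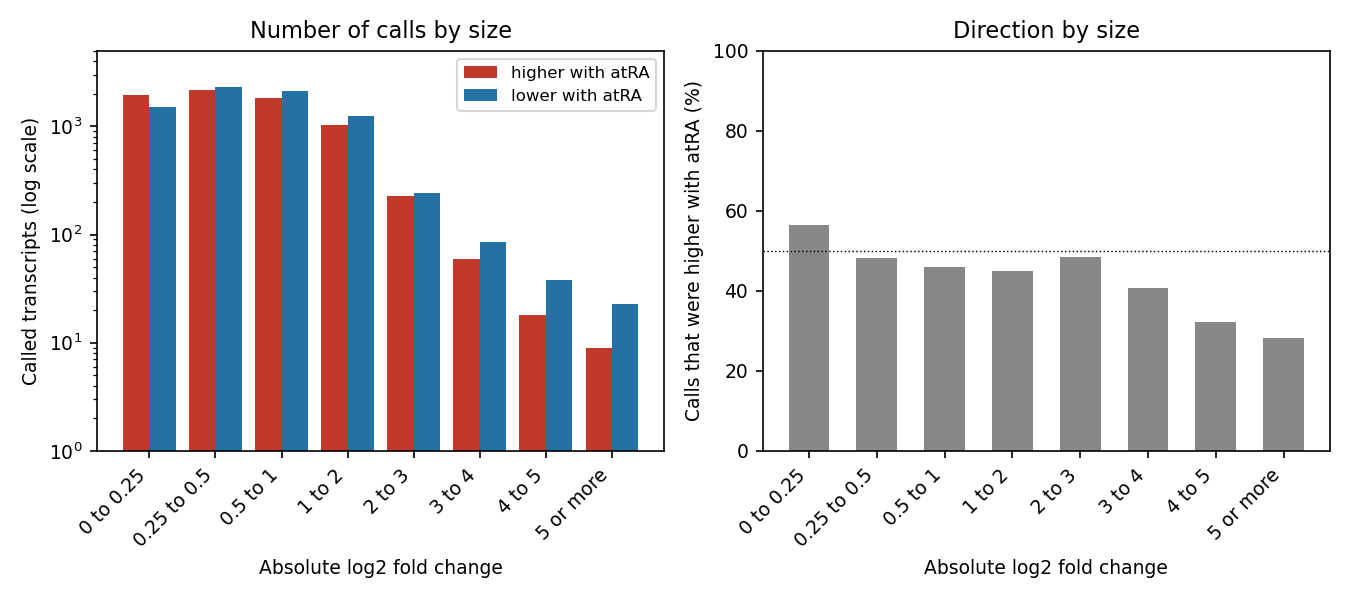
Left, number of called transcripts (log axis) in each class of absolute log2 fold change, rises and falls side by side; right, the share of calls in that class that were higher with atRA, with a dotted line at 50%. With TMM scaling the share of rises is 56.4% in the smallest class and 28.1% at 5 or more, where 32 transcripts remain.

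The share of transcripts called differed less between abundance classes than the size of their changes did. Transcripts were put in classes by their mean CPM over the 6 libraries. In the lowest class, under 0.3 CPM, 25.3% of 4985 tested transcripts were called (95% exact binomial interval 24.1 to 26.6%, counting error only). The share was 38.7% between 3 and 10 CPM and 41.5% between 30 and 100 CPM. It was 27.6% between 300 and 1000 CPM (23.3 to 32.2%) and 31.6% of the 76 transcripts at 1000 CPM or more (21.4 to 43.3%). The response thus reached every abundance class.

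Precision rose with abundance, so these shares do not compare equal changes. The median standard error of a log2 fold change was 0.32 under 0.3 CPM, 0.079 between 3 and 10 CPM and 0.046 between 30 and 100 CPM. The smallest absolute log2 change that was called was 0.65 in the lowest class and 0.11 between 30 and 100 CPM.

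Large changes were more frequent among transcripts of low abundance. Changes of at least 2-fold were called for 18.9% of transcripts under 0.3 CPM, 7.48% between 1 and 3 CPM, 2.5% between 10 and 30 CPM and 1.19% between 100 and 300 CPM. Among the 485 transcripts at 300 CPM or more there were none, where the smallest called change was 0.12 on the log2 scale between 300 and 1000 CPM. Transcripts under 3 CPM made up 44.4% of those tested and 76.3% of the calls of at least 2-fold. The test of a change beyond 1.5-fold, which takes precision into account, passed 10.3% of transcripts under 0.3 CPM, 11% between 0.3 and 1 CPM, 9.25% between 1 and 3 CPM and 2.47% between 100 and 300 CPM.

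**Figure D3:**
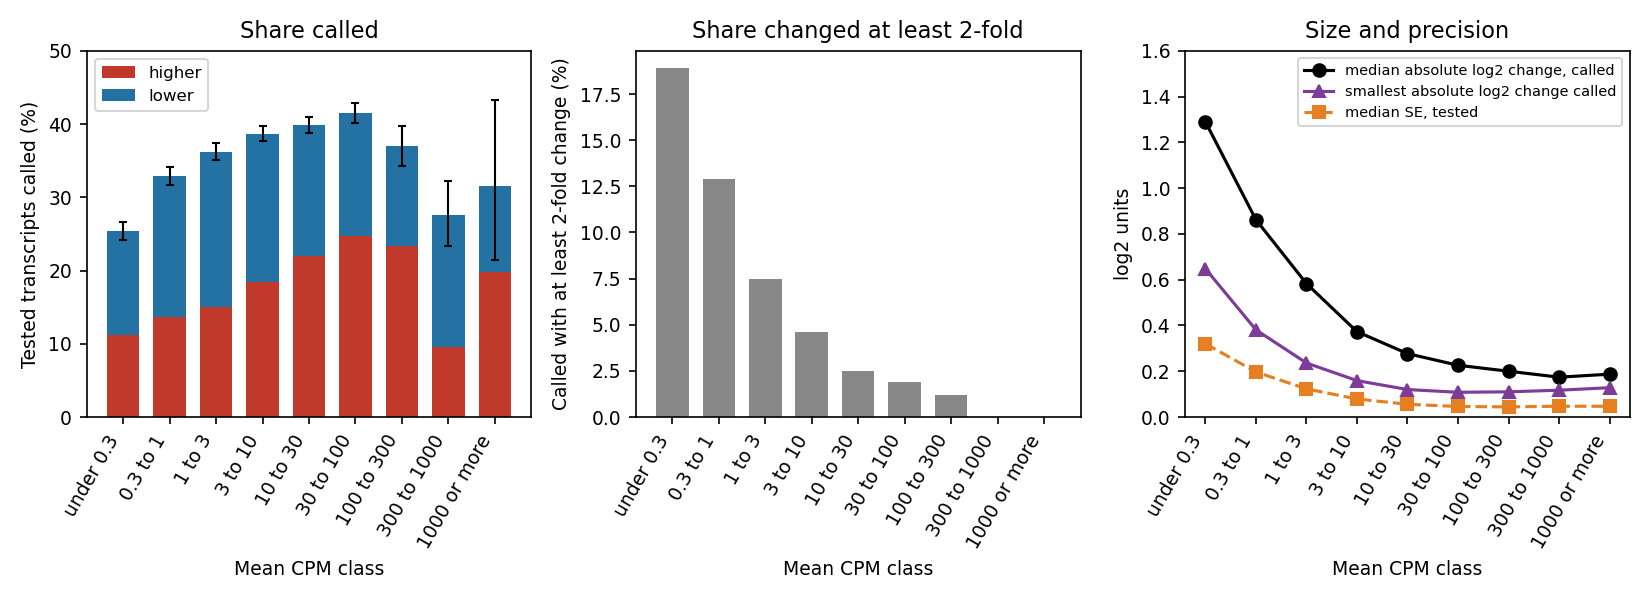
Classes of mean CPM over the 6 libraries are on each horizontal axis. Left, the share of tested transcripts called, split into higher and lower, with 95% exact binomial intervals of the total; centre, the share called with at least a 2-fold change, falling from 18.9% to 0; right, the median absolute log2 change and smallest absolute log2 change among calls, and the median standard error of all tested, in log2 units.

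Rises and falls were spread differently over abundance. Between 0.3 and 1 CPM, 843 calls were rises and 1186 falls. Between 30 and 100 CPM there were 1125 rises and 760 falls, and between 300 and 1000 CPM 39 rises and 74 falls. In the middle range the majority depended on the scaling: between 30 and 100 CPM the share of rises was 59.7% with TMM, 61.9% with DESeq2 size factors, 52.7% with library totals and 49.5% with upper quartile factors. Below 3 CPM falls were the majority of each class with each of these 4 scalings. When classes were set by the control level alone, this changed only under 0.3 CPM, with 858 rises and 426 falls. Falls then remained the majority between 0.3 and 1 CPM (859 rises, 1148 falls) and between 1 and 3 CPM (1056 rises, 1530 falls).

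For changes of at least 2-fold the scaling mattered little. At 30 CPM or more, 76 such calls were rises and 24 were falls, and between 30 and 100 CPM the share of rises ran from 71.1 to 75.3% over the 4 scalings. How abundance was measured mattered more. With classes set by the control level alone, 30 of 72 such calls between 30 and 100 CPM were rises and 626 of 957 under 0.3 CPM, because a transcript that rises from a low control level then moves to a lower class. The level on the higher side treats both directions alike. Of the transcripts that changed at least 2-fold, 25 rises and 4 falls had a higher side of at least 100 CPM, and of those that changed at least 8-fold, 6 rises and 0 falls did. At a higher side of at least 1 CPM the counts at 8-fold were 40 rises and 85 falls.

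Single transcripts show the range. The steepest rise between 100 and 300 CPM had a control level of 23 ± 0.363 CPM and an atRA level of 526 ± 6.52 CPM (SD, n = 3), which is 4.52 on the log2 scale (SE 0.048). The steepest fall in that class went from 156 ± 9.59 to 70.9 ± 9.15 CPM, or -1.13 on the log2 scale (SE 0.07). Between 30 and 100 CPM the steepest rise went from 6.39 ± 0.333 to 136 ± 1.02 CPM and the steepest fall from 71.7 ± 0.498 to 6.46 ± 1.85 CPM. Steep changes in both directions therefore occurred in that class.

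At the top of the range the changes were modest. The steepest rise at 1000 CPM or more went from 1120 ± 78.4 to 1470 ± 127 CPM (adjusted p = 9.02e-05, edgeR), and the steepest fall from 3130 ± 220 to 2590 ± 136 CPM (adjusted p = 0.000954, edgeR). These are the extremes of their classes and were picked for their size, so they describe the reach of the response and not its typical strength. Their IDs are not given because the number of IDs named was limited to 4.

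Summed CPM describe how much of the assigned reads moved. They are not a share of RNA molecules, since longer transcripts gather more reads, and IDs with the same counts each add to the sums. Transcripts called higher summed to 176083 to 179275 CPM in the 3 control libraries and to 222482 to 223226 CPM with atRA. Those called lower summed to 170037 to 172417 CPM in controls and to 138699 to 140173 CPM with atRA. The groups were separated by the choice of these transcripts, so the sums are a description. The summed gain was 45440 CPM and the summed loss 32370 CPM. CPM scaled with TMM factors do not add up to the same total in each library. The difference between gain and loss therefore depends on the scaling. Changes of at least 2-fold held 19.8% of the gain and 13.7% of the loss, so the larger part of the shift came from changes of under 2-fold. Of the 7258 rises, 372 held 50% of the gain, and of the 7586 falls, 405 held 50% of the loss. The 100 most abundant transcripts took 16.2 to 16.6% of counts in controls and 16.4 to 16.5% with atRA, ranges that overlap.

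Complete switches were rare among the transcripts tested. They were not counted without the filter on low counts, which left 17459 transcripts untested. A transcript was taken as switched on when it was called higher and no control library held more than 3 counts, and as switched off when it was called lower and no atRA library did. A count of 3 stood for 0.0336 to 0.0389 CPM in these libraries. By this measure 36 transcripts were switched on and 52 switched off, which is 0.496% of the rises and 0.685% of the falls. Both terms compare the groups at 12 somites, and neither says that a transcript was active or silent before. At 80% epiboly 24 of the 52 held at most 3 counts in every library, and 7 had a control mean of at least 10 counts. Of the 36 switched on, 14 and 4 did. Measured by level instead, 6 rises went from under 0.1 CPM to at least 1 CPM, and 25 falls went the other way. Transcripts at the floor in 1 group passed the filter on low counts only through the other group and had to differ, so all 36 and all 52 that were tested were called, and this is no evidence about them. The number depends on the floor: with at most 10 counts there were 255 on and 379 off, and with no count at all 4 of each.

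Most of these transcripts were scarce on their high side too. The level on the high side had a median of 0.211 CPM in both sets. It ranged from 0.125 to 2.63 CPM for transcripts switched on, which held 9 to 241 counts per atRA library. For those switched off it ranged from 0.128 to 8.85 CPM, with 11 to 817 counts per control library. A level of 1 CPM or more was reached by 2 of the 36 and by 9 of the 52. Where the low group held no count at all, the rise was at least 5.36-fold to at least 12-fold over 4 transcripts and the fall at least 4.67-fold to at least 16-fold over 4, against a floor of 3 counts per library. For 8 of the switched-on and 17 of the switched-off transcripts the 95% counting interval of the ratio of pooled counts lay above 10-fold. Some IDs were near copies: counting IDs whose profiles over 18 libraries differed by under 5% as 1 left 34 on and 48 off.

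**Figure D4:**
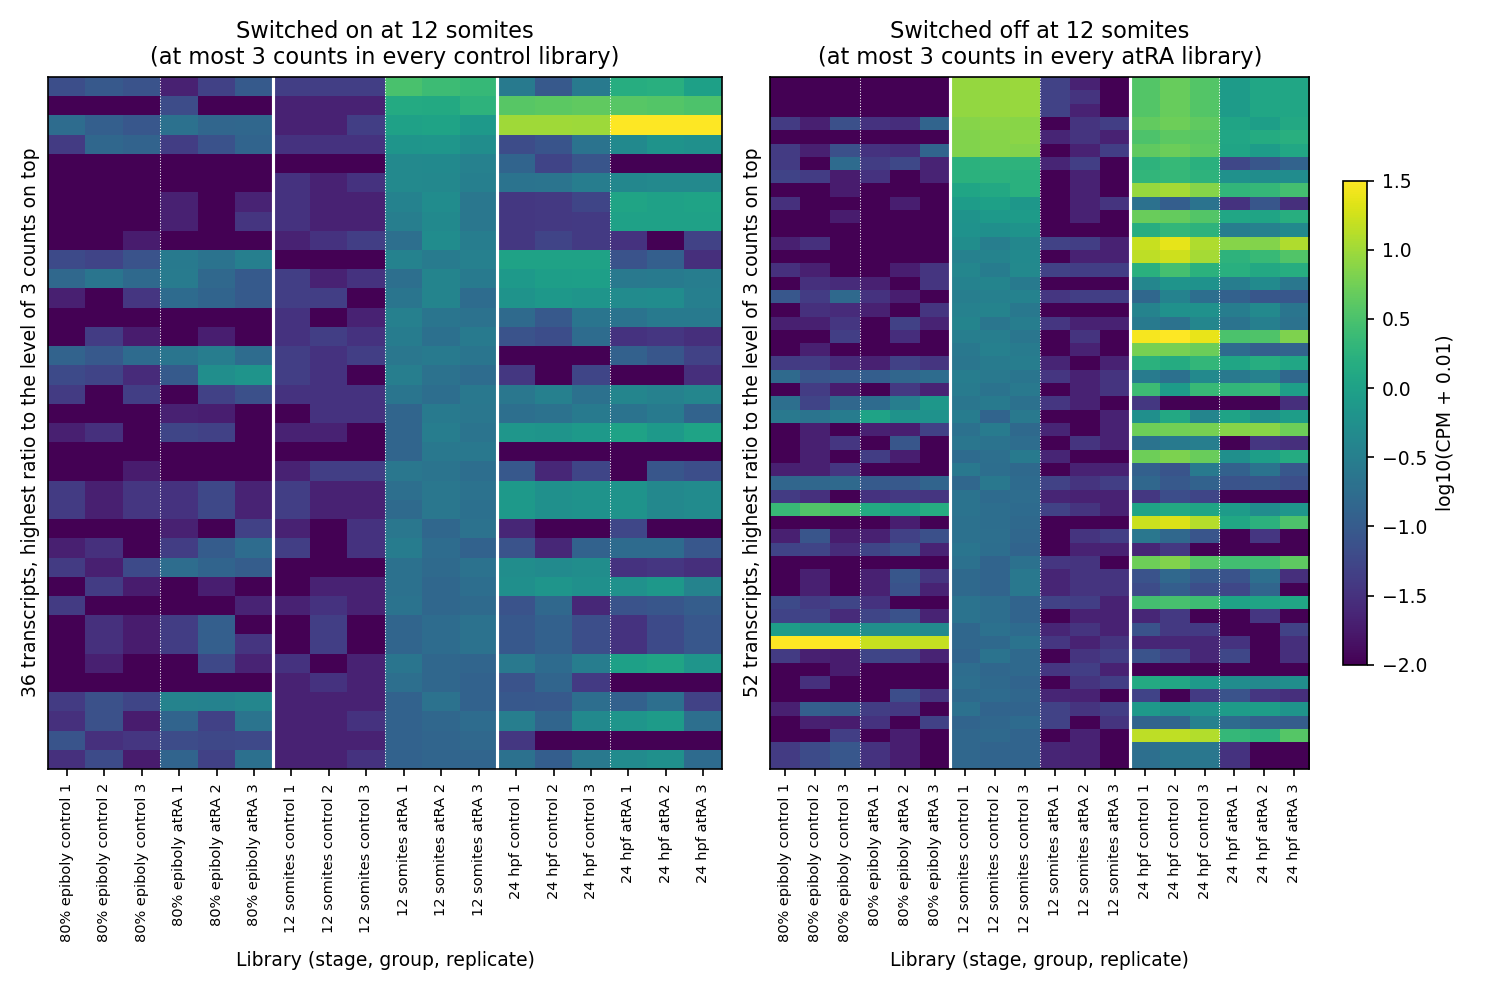
Rows are the 36 transcripts switched on (left) and the 52 switched off (right) at 12 somites, and columns are all 18 libraries in order of stage, group and replicate. Colour is log10(CPM + 0.01), with values beyond the ends of the scale drawn in its end colours. In this figure CPM is relative to library totals, without TMM factors. The dark block marks the group at the floor at 12 somites, by which rows were chosen. At 24 hpf 35 of the 52 switched-off transcripts were tested and 21 were called lower with atRA, beside 5.51% of all transcripts tested there. Some of the 21 passed the filter only through the 24 hpf controls and so tended to be called lower. Without 24 hpf atRA replicate 1, 6 of 38 tested were called lower, beside 0.909% of all.

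The libraries of 24 hpf, which took no part in the choice, show what the same transcripts did later under the same onset of treatment. At that stage atRA libraries held 38673189 to 50505506 assigned counts and controls 68391282 to 72734557. Reads with no feature made up 3.83 to 4.29% with atRA and 5.6 to 6.35% in controls. How far these differences bear on the 24 hpf values was not tested. Of the 52 switched-off transcripts, 40 had a mean of at least 10 counts in 24 hpf controls and 24 had at least 100, while 6 were still at the floor in each control library. At 24 hpf 35 of the 52 passed the filter, and 21 of them were called lower with atRA and 0 higher. Over all transcripts tested there, 5.51% were called lower and 4.09% higher. The median log2 fold change of the 35 was -1.81, against -0.013 over all transcripts. The estimates ran from -5.39 to 0.36. Some of the 21 passed the filter only through the 24 hpf controls and so tended to be called lower. An example had a mean of 134 counts in controls and 3.67 with atRA. Near copies are counted here as separate IDs. Both points bear on the count and on the median. The count of calls moved with single libraries: 6 of 38 tested were called lower without 24 hpf atRA replicate 1, where 0.909% of all transcripts were, and 14 of 38 without atRA replicate 2, where 1.69% of all were.

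Transcripts switched on showed no single later course. Of the 36, 21 were tested at 24 hpf, 6 were called higher and 3 lower, with a median log2 fold change of 0.65, beside 4.09% higher, 5.51% lower and a median of -0.013 over all transcripts of that stage. Some of these, too, passed the filter only through 1 group, such as a transcript with mean counts of 2.33 in controls and 47.3 with atRA. In 24 hpf controls 18 had a mean of at least 10 counts and 8 were at the floor in each library. At 80% epiboly most of both sets was too scarce to test: 6 of the 36 and 7 of the 52 passed the filter. Of the 6, 2 were called higher and 0 lower, and of the 7, 2 were called in each direction, beside 14.1% higher and 13.7% lower over all transcripts of that stage. Both numbers are too small to read a share from. For the switched-on set the number that passed the filter also changed with the libraries used. With 1 control left out 4, 6 and 5 of 11 tested were called higher, and with 1 atRA library left out 3 of 7, 4 of 8 and 4 of 8, while 10.8 to 13.4% of all transcripts were called higher in these fits. Transcripts scarce in controls of that stage could pass the filter only through its atRA libraries and then tend to be called higher. These counts therefore cannot be read against the share of all transcripts.

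The sets that changed at least 2-fold hold more transcripts. Of the 1333 transcripts that rose at least 2-fold at 12 somites, 1110 were tested at 24 hpf, where 30% were called higher and 4.05% lower. Of the 1639 that fell at least 2-fold, 1422 were tested there, and 20.7% were called lower and 2.95% higher. Over all transcripts tested at 24 hpf, 4.09% were called higher and 5.51% lower. These sets include the switched-on and switched-off transcripts, and 76.3% of the calls of at least 2-fold lay under 3 CPM. Members scarce in 1 group of another stage could pass its filter only through the other group, and then tend to be called. How far this raised the shares in the 12 somites direction was not tested. The counts moved with single libraries of that stage: the 333 rises became 145 without control replicate 1, and 134, 188 and 202 without atRA replicates 1, 2 and 3. In the same fits the share of all transcripts called higher fell from 4.09% to 0.753, 0.633, 1.19 and 1.19%. The 294 falls became 114 without control replicate 1, and 77, 120 and 156 without atRA replicates 1, 2 and 3, while the share of all transcripts called lower went from 5.51% to 1.47, 0.909, 1.69 and 1.89%. Without control replicate 2 the counts rose to 425 rises and 419 falls, while 9.77% of all transcripts were called higher and 10.9% lower. At 80% epiboly, where treatment had begun earlier and embryos were collected earlier, 43.4% of the 888 rises tested were called higher and 8.45% lower. Of the 913 falls tested there, 18.2% were called lower and 16.5% higher, and their median log2 fold change was -0.074. Over all transcripts tested at 80% epiboly, 14.1% were called higher and 13.7% lower, so the shares of the falls lay near those of all transcripts. Whether the atRA effect on these sets differed between stages was not tested.

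A few transcripts, 4 in all, show these kinds of response library by library. They are the steepest rise and fall that were called, did not overlap, and averaged at least 10 counts in each group, and the transcripts switched on and off whose level stood highest above that of 3 counts. What genes they belong to is not known here. ENSDART00000073600.4 had the steepest rise among transcripts that met these conditions, with a mean of at least 10 counts in each group. It held 15, 15 and 13 counts in the control libraries and 455, 449 and 507 with atRA. The groups were far apart and replicates of each agreed closely. Its level was 0.162 ± 0.0147 CPM in controls and rose to 5.7 ± 0.392 CPM (SD, n = 3), which is 5.12 on the log2 scale with an SE of 0.14 (adjusted p = 2.6e-14, edgeR). At 24 hpf the levels were 0.155 ± 0.0243 CPM in controls and 1.26 ± 0.363 CPM with atRA, again without overlap (log2 fold change 3.01, adjusted p = 0.0027, edgeR). At 80% epiboly they were 0.272 ± 0.0286 CPM in controls and 0.451 ± 0.0786 CPM with atRA, and this difference was not called although the groups did not overlap (adjusted p = 0.0506, edgeR).

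ENSDART00000130260.2 had the steepest fall among transcripts with a mean of at least 10 counts in each group. Its control libraries held 687, 695 and 642 counts and its atRA libraries 23, 28 and 20. Every atRA library lay far below every control. The level was 7.64 ± 0.416 CPM in controls and fell to 0.287 ± 0.0474 CPM (SD, n = 3), which is -4.73 on the log2 scale with an SE of 0.12 (adjusted p = 1.1e-14, edgeR). At 24 hpf the controls stood at 7.35 ± 1.38 CPM and the atRA libraries at 3.29 ± 0.952 CPM, a smaller fall (log2 fold change -1.16, adjusted p = 0.0273, edgeR). At 80% epiboly the direction was the opposite: 0.689 ± 0.0204 CPM in controls and 1.35 ± 0.15 CPM with atRA (log2 fold change 0.97, adjusted p = 0.000842, edgeR).

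ENSDART00000121462.2 was the switched-on transcript with the highest level above that of 3 counts, and it lay exactly at the floor in controls. Each control library held 3 counts, and the atRA libraries held 241, 217 and 191. The ratio of pooled counts, scaled for depth, was 77.1 (95% counting interval 40.4 to 169, adjusted p = 5.16e-12, edgeR). Another switched-on transcript, with 1 count in each control library, had a ratio of 134 (45.4 to 651), an interval that overlaps this one. At 24 hpf ENSDART00000121462.2 was present in controls at 0.192 ± 0.0869 CPM and higher with atRA at 1.4 ± 0.267 CPM (log2 fold change 2.83, adjusted p = 0.00585, edgeR). At 80% epiboly it held 1 to 8 counts per library with overlapping groups and was not tested.

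ENSDART00000082339.5 was the switched-off transcript with the highest level above that of 3 counts. The control libraries held 763, 766 and 817 counts, and the atRA libraries 3, 1 and 0. The ratio of control to atRA was 549 in pooled counts (95% counting interval 214 to 2020, adjusted p = 3.12e-15, edgeR). All 6 libraries of 80% epiboly held 0 counts. At 24 hpf controls stood at 3.96 ± 1.01 CPM and atRA libraries at 1.09 ± 0.24 CPM (log2 fold change -1.85, adjusted p = 0.00739, edgeR), so the transcript was present in every atRA library of that stage. Counts of 2 other IDs lay within 5% of it over the 18 libraries, and which of these transcripts gave the reads cannot be told from the counts.

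**Figure D5:**
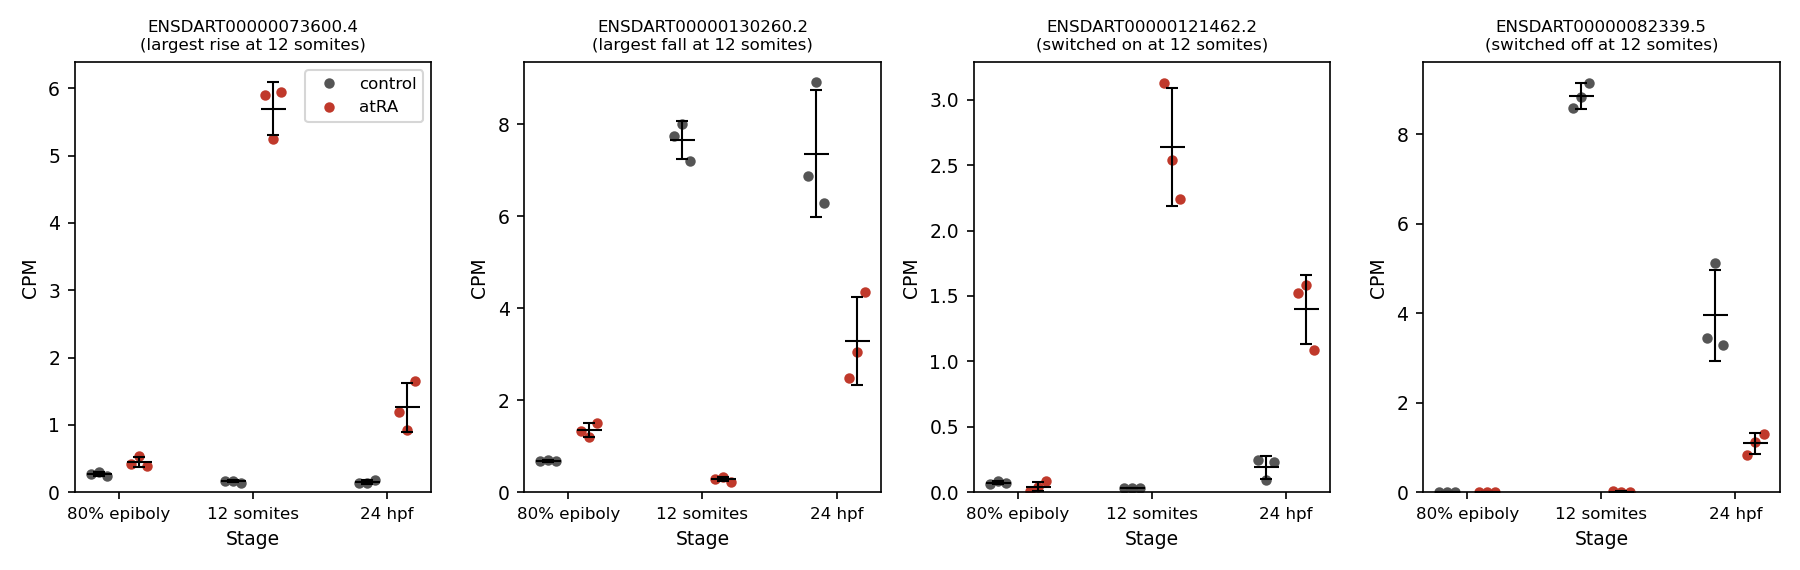
CPM of 4 transcripts in every library (points) with the mean and SD of each group (bars), at 80% epiboly, 12 somites and 24 hpf, controls in grey and atRA in red. At 12 somites the groups are separate in all 4 panels, and at 24 hpf each keeps the 12 somites direction with a smaller gap.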

How the data were processed

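RNA sequencing counts of 18 zebrafish libraries were used, 6 of them for the main comparison. The authors deposited raw counts per Ensembl transcript ID, 1 file per library, with 5 summary lines that were dropped before scaling and testing. Per the submitters' processing notes, STAR and HTSeq and the builds GRCz10 and danRer10 were involved; versions, annotation, strand setting and the handling of shared reads are not given in the sources used here. Libraries were grouped by the titles in the labels.

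Tests used edgeR 4.0.16 in R 4.3.3 on the 6 libraries (filterByExpr, TMM, glmQLFit, glmQLFTest, glmTreat), with Benjamini-Hochberg adjustment over all transcripts tested and a threshold of 0.05. The other stages were fitted the same way, 6 libraries each. Standard errors were derived from each estimate and its F statistic. Intervals and floors cover counting error only. The scripts were tested on simulated data.

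The comparison, the classes and the rule for the 4 named transcripts were chosen with earlier results of these data known. The 212 genes listed for pathways and cell types could not be matched, so those lists gave no result. Control libraries were not compared between stages, because the 12 somites controls are part of the main comparison. Alternatives included DESeq2 1.42.0 and limma 3.58.1 (voom). Same-numbered libraries were not paired by the labels.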

Additional observations from a re-analysis of the deposited data

Results flagged for a closer look

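ENSDART00000130260.2 moved in opposite directions at successive stages. With atRA it was higher at 80% epiboly in each of the 3 libraries than in any control (log2 fold change 0.97) and lower at 12 somites in each of the 3 (log2 fold change -4.73). The difference between the stages was not tested, since the transcript was picked for its change at 12 somites.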

How the results depend on the processing

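The number of calls at 12 somites stayed within 1.5 times of 14844 under other scalings, filters, tests and thinning, from 12582 (DESeq2) to 15239 (no filter on low counts), and was 10317 at an adjusted p under 0.01. It was 6644 when all 18 libraries shared 1 fit and 2972 when at least 2-fold was required. Rises made up 50.4% of calls with DESeq2 size factors, 44.5% with library totals, 42.7% with upper quartile factors, 50.2% with at least 10 counts in every library, 51% with the DESeq2 test, 46.5% in the fit of 18 and 44.9% of at least 2-fold calls. Switched-on and switched-off transcripts numbered 4 and 4 at a floor of 0 counts, 9 and 21 at 1, and 255 and 379 at 10. Thinned to the smallest library they numbered 33 and 44. With 1 library left out there were 11955 to 14012 calls, 3006 to 3186 of at least 2-fold, 48.8 to 50.4% rises, 2652 to 2904 beyond 1.5-fold and 1156 to 1244 beyond 2-fold. Then 38 to 79 transcripts were on and 55 to 114 off. The larger increases came without a library of the group at the floor, where 2 libraries in place of 3 must meet it: 79, 73 and 61 on without control replicates 1, 2 and 3, and 98, 114 and 108 off without atRA replicates 1, 2 and 3. Without a library of the other group there were 38 to 45 on and 55 to 65 off. Without 1 library of the other stage, an alternative added after seeing the data, calls in the 12 somites direction at 24 hpf numbered 6 to 20 for the off set, 4 to 6 for the on set, 77 to 419 for the 2-fold falls and 134 to 425 for the 2-fold rises. Tested were 33 to 39, 21 to 23, 1417 to 1485 and 1111 to 1163. Of all transcripts 0.909 to 10.9% were called lower in these fits and 0.633 to 9.77% higher. At 80% epiboly the calls numbered 2 to 3, 3 to 6, 141 to 163 and 356 to 388. There 9.7 to 13.7% of all transcripts were called lower and 10.8 to 13.4% higher. All 66 values of the 4 named transcripts kept direction and call. They were picked for steep changes in the same libraries, so this is no independent check. The switched-on and switched-off transcripts did not enter the fit with at least 10 counts in every library. Libraries sharing a replicate number had deviations from their group means that correlated weakly, at 0.031, 0.0062 and 0.029. Whether they were paired was not tested. A replicate block gave 15245 calls.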

Other observations

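Reads outside the transcript counts differed little at 12 somites. Shares are of the assigned counts plus 3 summary lines: no feature, ambiguous and no unique alignment. The line for low alignment quality was left out, since it equalled that for no unique alignment in all 18 libraries. Ambiguous reads made up 18.4% in controls and 18.3% with atRA, without overlap between the groups. The exact two-sided permutation p was 0.1, the smallest that 3 against 3 can give (0.3 after Benjamini-Hochberg adjustment over 3 shares). The shares of reads with no feature (4.05% and 4.2%) and without a unique alignment (7.25% and 7.19%) overlapped between the groups.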
